A study of Mus musculus with 9 samples.

Results

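The regions described here were accessible in Thy-1-negative cells of day 6 of reprogramming (D6T-) and at no other time-point of the course, and were found again in a second library of day 6 cells that had received a non-targeting siRNA (D6 siNT). They were chosen by peak calls: the peaks of the 7 time-course libraries were merged into 204843 union regions on chromosomes 1 to 19, of which 38645 had a peak in D6T- and in none of the other 6 libraries (D6-only regions), and 2840 of those overlapped a D6 siNT peak by at least 1 bp. The 2840 regions are 7.35% of the D6-only regions, 2.24% of the 126731 union regions with a D6T- peak and 1.39% of all union regions. Over all union regions with a D6T- peak, 32.0% overlapped a D6 siNT peak. Since the D6T- and D6 siNT peaks selected the regions, their signals in both libraries are given as a description, and the knockdown library, the position in the genome and the DNA sequence are the measures that the choice did not use.

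The study reprogrammed mouse embryonic fibroblasts (MEFs) carrying a GFP reporter of Oct4 by infecting them with pMXs retroviruses for Sox2, Klf4, Oct4 and c-Myc (OSKM). ATAC-Seq was performed on unsorted cells at D0 and D3, on Thy-1-negative cells at day 6 and day 9 (D6T- and D9T-), on SSEA-1-positive cells at day 12 and day 16 (D12S+ and D16S+) and on fully reprogrammed iPSCs. A further pair of libraries came from day 6 cells that received siRNA against the histone variant H3.3 (D6 siH3.3) or the non-targeting siRNA (D6 siNT). The GEO labels give Thy-1-negative sorting for both siRNA libraries, whereas the library sheet of the study lists no sorting for them, so the sort of these cells was not settled here. Each condition had 1 library, no label names separate cultures, and no difference between conditions has a replicate check or a test. The study describes the knockdown as transient and limited to the early part of reprogramming. ATAC-Seq does not measure the level of H3.3, so the knockdown itself was not checked here. Whether H3.3 was still low in the day 6 cells is not known from these data. The infected populations are mixed, and in bulk chromatin an opening in fewer cells and a weaker opening per cell cannot be told apart.

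ATAC-Seq marks open chromatin, where the Tn5 transposase can cut DNA that nucleosomes leave free. In fibroblasts many distal open regions carry the motif of AP-1, the dimer of Jun and Fos proteins, and these regions close as the somatic programme is lost, while Oct4 and Sox2, a POU-domain and an HMG-box factor, and the zinc finger factor Klf4 bind their own motifs, at many sites only for a time, before the pluripotent enhancers are set up. Thy-1 is a surface protein of fibroblasts that reprogramming cells lose early, and SSEA-1 is a surface carbohydrate of pluripotent cells that they gain later. H3.3 is a histone variant that is placed outside of DNA replication, at active genes and regulatory elements by Hira and at heterochromatin by Atrx and Daxx.

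The sequences of 7 of these regions are shown first, because the motif content around the summit is a measure that the choice did not use. Each is the 200 bp centred on the D6T- summit, from mm9 (NCBIM37), plus strand, 5′ to 3′. Capitals mark matches on either strand to the AP-1 motif TGACTCA, the SOX motif CCATTGT, the KLF motif CACACCC or the POU octamer ATGCAAAT. The first 4 are from the regions with the strongest signal in both libraries that chose them, and the other 3 are among the 4 strongest with the SOX motif, which of 24 motifs was the most raised in share.
Intergenic region 108515 bp from the TSS of Negr1, chr3:156116222-156116421: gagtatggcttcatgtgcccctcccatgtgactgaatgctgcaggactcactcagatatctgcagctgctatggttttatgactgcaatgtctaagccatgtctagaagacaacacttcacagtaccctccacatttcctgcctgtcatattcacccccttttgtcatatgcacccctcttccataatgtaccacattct
Intergenic region 130848 bp from the TSS of Sstr4, chr2:148090025-148090224: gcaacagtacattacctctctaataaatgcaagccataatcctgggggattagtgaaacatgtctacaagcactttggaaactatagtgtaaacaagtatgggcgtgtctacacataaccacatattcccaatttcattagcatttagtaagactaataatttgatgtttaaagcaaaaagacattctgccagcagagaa
Intergenic region 469544 bp from the TSS of Zeb2, chr2:45442340-45442539: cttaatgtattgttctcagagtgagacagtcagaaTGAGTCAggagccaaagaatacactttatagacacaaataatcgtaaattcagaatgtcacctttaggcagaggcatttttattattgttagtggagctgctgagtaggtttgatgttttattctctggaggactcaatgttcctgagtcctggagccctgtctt
Intergenic region 429254 bp from the TSS of Tcfec, chr6:16419076-16419275: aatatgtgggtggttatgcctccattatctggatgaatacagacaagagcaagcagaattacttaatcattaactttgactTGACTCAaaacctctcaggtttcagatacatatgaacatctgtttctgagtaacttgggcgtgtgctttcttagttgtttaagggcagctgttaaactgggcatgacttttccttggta
SOX region A, chr16:59067362-59067561: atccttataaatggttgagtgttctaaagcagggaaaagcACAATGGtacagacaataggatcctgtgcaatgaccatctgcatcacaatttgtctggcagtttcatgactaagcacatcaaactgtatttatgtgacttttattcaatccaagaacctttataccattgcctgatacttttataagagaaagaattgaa
SOX region B, chr9:22584157-22584356: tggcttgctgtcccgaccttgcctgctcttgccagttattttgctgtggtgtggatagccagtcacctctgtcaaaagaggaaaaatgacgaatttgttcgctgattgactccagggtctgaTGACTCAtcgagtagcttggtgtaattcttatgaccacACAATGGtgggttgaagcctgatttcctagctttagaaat
SOX region C, promoter of Rap1gap2, chr11:74257421-74257620: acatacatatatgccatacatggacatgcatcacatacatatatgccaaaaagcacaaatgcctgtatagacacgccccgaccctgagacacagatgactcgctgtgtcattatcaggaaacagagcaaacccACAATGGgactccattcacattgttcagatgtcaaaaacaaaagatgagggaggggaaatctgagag

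Of the first 4 sequences, those named by Zeb2 and Tcfec hold 1 AP-1 match each (TGAGTCA and TGACTCA), and those named by Negr1 and Sstr4 hold none of the marked motifs. Each of the 3 SOX regions holds ACAATGG, the other strand of CCATTGT, and region B also holds TGACTCA.

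The libraries held from 13213117 tags (D9T-) to 31714845 tags (D0), with 21390800 in D6T-, 21784047 in D6 siNT and 18669683 in D6 siH3.3. At nearly equal depth, D6T- had 129532 accessible regions and D6 siNT had 45312. Signal is given as CPM, the pileup of extended tags at the summit scaled to 1000000 tags in the library, and the weakest called summit had 0.331 CPM in D3 and 0.530 CPM in D9T-, so that weaker openings were not detectable at this depth. The labels were checked at promoters (3 kb upstream of a TSS, transcription start site). Of 10 fibroblast genes, 9 had a promoter region in D6T- and 6 each in D6 siNT and D6 siH3.3. In D0 and iPSCs 8 and 6 of them had one, so this list separated fibroblasts from iPSCs poorly. Of 10 pluripotency genes, 4, 1 and 1 had one in D6T-, D6 siNT and D6 siH3.3, against 10 in iPSCs. Thy1 itself had a promoter region in D0, D3, D12S+, D16S+ and iPSCs but not in D9T- or the 3 day 6 libraries. Of 13 hematopoietic genes, 5, 3 and 2 had a promoter region in D6T-, D6 siNT and D6 siH3.3, and of 15 endothelial genes 11, 8 and 6. In iPSCs 5 hematopoietic and 11 endothelial genes had one, as many as in D6T-. The part of such cells in the results was not tested.

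The regions were weakly to moderately accessible. In D6T- their summit pileup ranged from 8 to 51 tags, with a median of 18 tags (0.841 CPM) and quartiles of 0.654 and 1.08 CPM, and in D6 siNT from 9 to 52 tags, with a median of 13 tags (0.597 CPM). D6-only regions without a D6 siNT peak had a lower D6T- median of 0.608 CPM, and all D6T- regions had 0.888 CPM. The share of D6-only regions that overlapped a D6 siNT peak went from 2.45% among those with 8 to 10 tags in D6T- to 24.3% at 21 to 30 tags and 52.6% of 380 regions at 31 tags or more. The same shares over all D6T- regions were 3.43%, 32.5% and 82.1%. The median region was 382 bp wide (200 to 1383 bp), and 94.3% had 1 summit. The D6T- and D6 siNT summits lay a median of 47 bp apart, within 100 bp in 2253 regions (79.3%), and the peaks overlapped by a median of 233 bp.

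**Figure D1:**
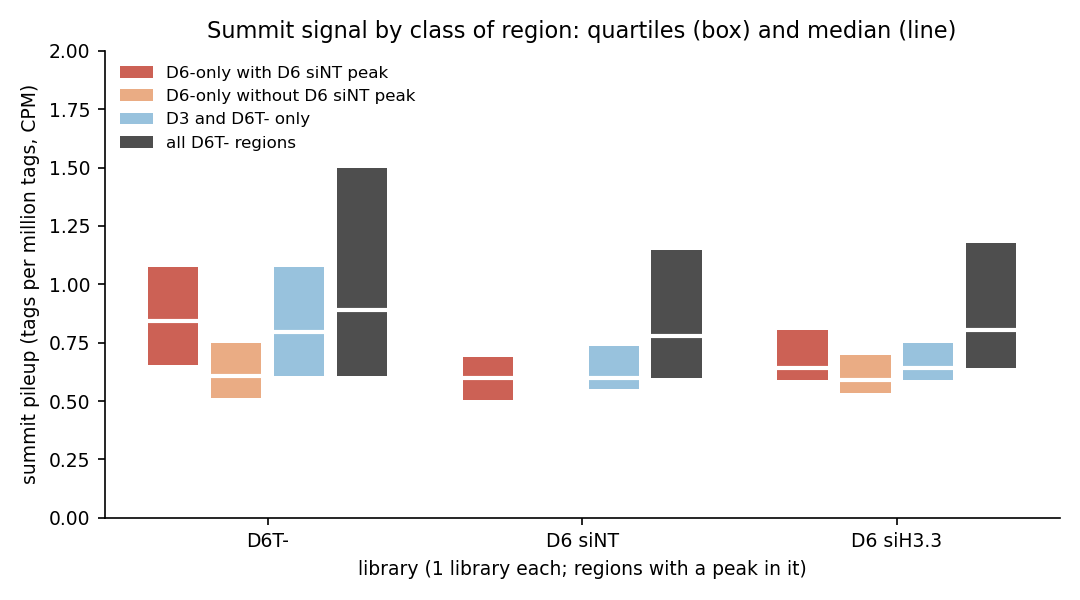
Summit pileup in CPM (y axis) in the D6T-, D6 siNT and D6 siH3.3 libraries (x axis, 1 library each) for 4 classes of region, drawn as quartiles (box) and median (line) over the regions with a peak in that library. The D6-only regions with a D6 siNT peak (red) had medians of 0.841, 0.597 and 0.643 CPM, below those of all D6T- regions (0.888, 0.780 and 0.803 CPM).

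At the edge of the rule, the smallest overlap between a chosen region and a D6 siNT peak was 3 bp, in an intron of Cckbr at chr7:112597705-112597904, with 8 tags in D6T- and 10 in D6 siNT. The next were 4 bp at chr4:76835297-76835561, in Ptprd, with 10 and 17 tags. Just outside, the D6-only region at chr2:139995583-139995787, in the promoter of 2310003L22Rik, had 8 tags in D6T- and lay 2 bp from a D6 siNT peak. In all, 32 regions had an overlap under 50 bp, and 421 D6-only regions that were not chosen lay within 200 bp of a D6 siNT peak.

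How far the regions stood above the other time-points is limited by what could be called there. The D6T- summit CPM of a region was a median of 2.43 times the lowest CPM called in D0, 2.54 times that in D3 and 1.59 times that in D9T-, with 1.85, 1.98 and 2.24 times in D12S+, D16S+ and iPSCs. It was at least 2 times the lowest called CPM in 69.6% of regions for D0 and for D3, but in 28.0% for D9T-. In D9T-, 328 regions had a D6T- signal below the lowest CPM that was called at all, so their absence from that library was not detectable at its depth. These ratios are descriptions and not limits, because a stretch narrower than the shortest called peak (200 bp) could exceed the lowest called level without being called. A peak lay within 1 kb of 12.5% of the regions in D3, 7.64% in D0, 7.43% in D9T-, 7.75% in D12S+, 4.47% in D16S+ and 4.86% in iPSCs.

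Of the 10 regions with the highest value of the lower of the D6T- and D6 siNT signal, 8 lay more than 100 kb from the nearest protein-coding TSS. The first, at chr3:156115665-156116822, lay between genes, 108515 bp upstream of the TSS of Negr1, a cell adhesion protein of neurons. It had 32 tags in D6T- (1.5 CPM, exact 95% Poisson interval 1.02 to 2.11), 34 in D6 siNT (1.56 CPM) and 15 in D6 siH3.3 (0.803 CPM). The region with the highest D6T- signal of the 10, at chr2:148089840-148090691, lay 130848 bp upstream of Sstr4, a somatostatin receptor, with 46 tags in D6T- (2.15 CPM), 32 in D6 siNT (1.47 CPM) and 19 in D6 siH3.3 (1.02 CPM). The region at chr2:45442167-45442752 lay 469544 bp upstream of Zeb2, a repressor of epithelial genes, and had 41 tags in D6T- (1.92 CPM), 31 in D6 siNT (1.42 CPM) and 16 in D6 siH3.3 (0.857 CPM). In all 3 the D6 siH3.3 level was below both levels used for the choice. The ranking picked regions high in both those libraries, so a lower level in a library it did not use can follow from the ranking alone.

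Further down, the region at chr6:16418950-16419424, 429254 bp downstream of the TSS of Tcfec, a helix-loop-helix transcription factor, had 1.36 CPM in D6T-, 1.51 in D6 siNT and 0.803 in D6 siH3.3. The region at chr14:92769521-92770100 lay 1962 bp upstream of a copy of the small RNA gene SNORA17 and 1515633 bp from the nearest protein-coding TSS, that of Pcdh9, a protocadherin, and had 1.68, 1.33 and 0.75 CPM. A single region of the 10 lay in an intron of a protein-coding gene, at chr11:32594293-32594824 in Fbxw11, which encodes a substrate adaptor of a ubiquitin ligase, and it was also the single one without a D6 siH3.3 peak (1.40 CPM in D6T- and 1.29 in D6 siNT). The nearest protein-coding TSS of the other 4 was that of Slc35b3 at 617810 bp (chr13:39670320-39670788), Gm11487 at 36652 bp (chr4:73027616-73028047), Fam174a at 273154 bp (chr1:96936773-96937330) and Cdh7, a cadherin, at 141996 bp (chr1:111736713-111737103). The region with Fam174a as its nearest gene lay 431 bp upstream of another copy of SNORA17. Across the 9 with a D6 siH3.3 peak, its level ranged from 0.75 to 1.18 CPM and was below that of D6 siNT in each, where the ranking itself used the D6 siNT value.

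**Figure D2:**
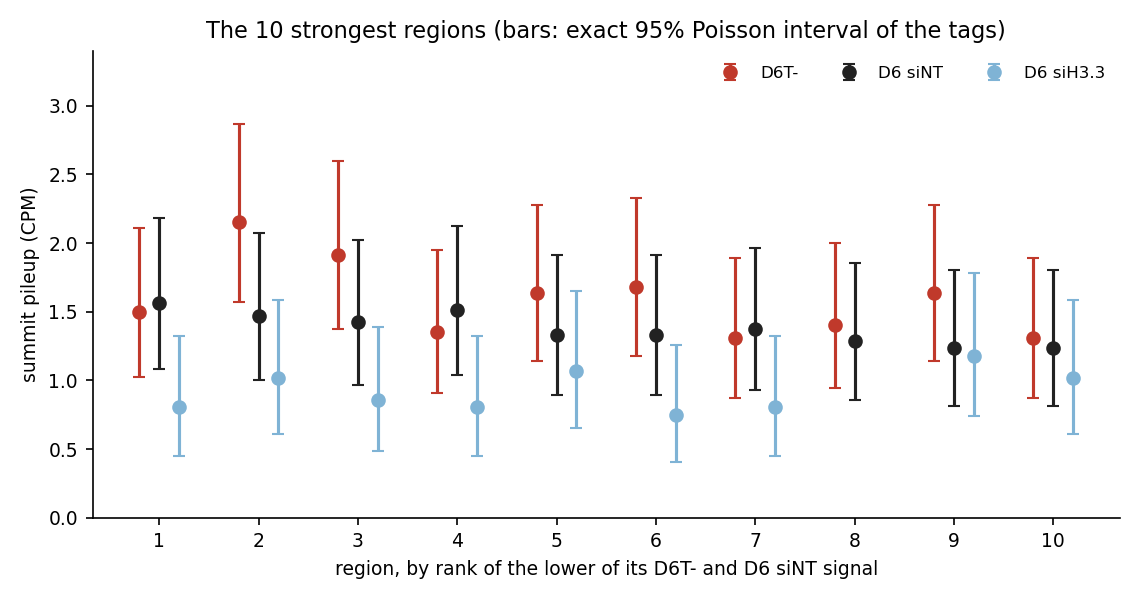
Summit pileup in CPM (y axis) in D6T- (red), D6 siNT (black) and D6 siH3.3 (blue) for the 10 strongest regions, ranked by the lower of the D6T- and D6 siNT values (x axis), with exact 95% Poisson intervals of the tags, which hold counting error only. The intervals of D6T- and D6 siNT overlap in all 10, and no D6 siH3.3 point is drawn for the region of rank 8, which had no peak there.

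A D6 siH3.3 peak was found at fewer of these regions than of other regions with a D6 siNT peak. A D6 siH3.3 peak overlapped 1331 of the 2840 regions (46.9%, 95% Wilson interval 45 to 48.7), against 78.6% of all 41144 union regions with a D6 siNT peak. The share was 53.4% (51.2 to 55.7) for the regions open in D3 and D6T- only that had a D6 siNT peak, and 79.7% (74.7 to 83.9) for those open from D6T- onwards that had one. Among the 35805 D6-only regions without a D6 siNT peak, 1694 had a D6 siH3.3 peak (4.73%). Over all D6T- regions, where no siRNA peak was required, 32.6% had a D6 siH3.3 peak and 32.0% a D6 siNT peak. The 78.6% also rests on regions with a D6 siNT peak, so that requirement was common to both shares. The 2840 regions were besides required to have a peak in D6T- and in none of the other 6 time-course libraries. Neither the part of this choice in the lower share nor an effect of the knockdown was tested. The regions had lower D6 siNT signal than other regions with a D6 siNT peak, and the share rose with that signal, so it was set out by D6 siNT pileup. At 9 to 10 tags, 32.6% of the regions had a D6 siH3.3 peak against 45.2% of the other regions with a D6 siNT peak. At 13 to 15 tags the shares were 46.0% (42.9 to 49.0) and 67.4% (66.4 to 68.4), and at 21 to 30 tags 84.5% (76.8 to 90.0) and 98.6% (98.3 to 98.9). In each of the 6 bands the share was lower in the D6-only regions than in the other regions. Against the regions open in D3 and D6T- only, the share was also lower in each band, but the intervals overlapped in all 6. These bands use the D6 siNT pileup that chose the regions, so they do not remove the part of the choice. Wilson intervals hold the sampling of regions and say nothing of a second library, and no test was possible with 1 library of each kind.

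**Figure D3:**
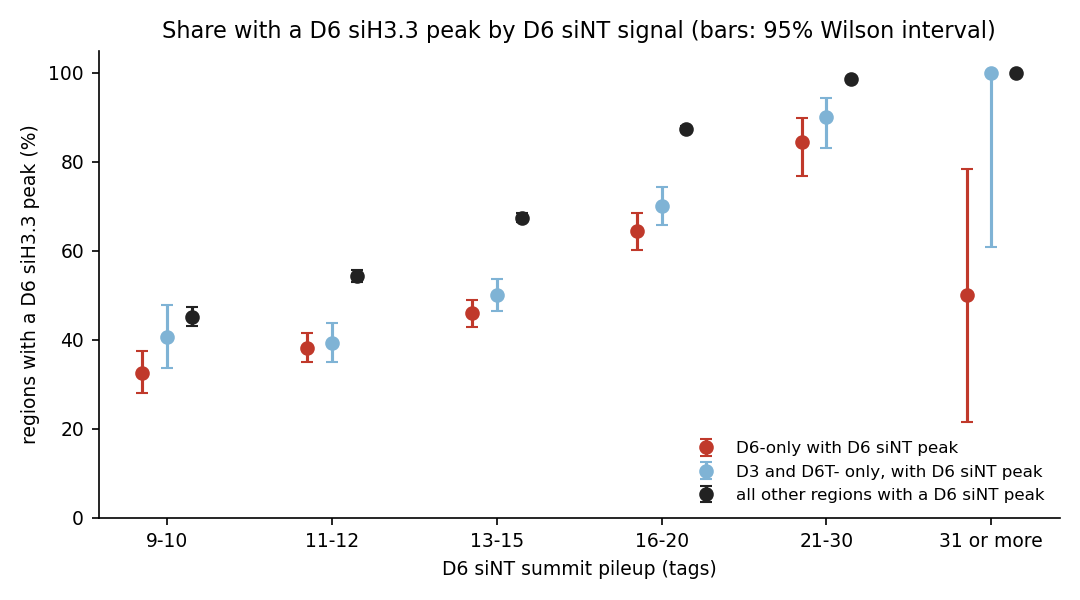
Share of regions with a D6 siH3.3 peak (y axis, %) by D6 siNT summit pileup (x axis, tags) for the D6-only regions with a D6 siNT peak (red), the regions open in D3 and D6T- only with one (blue) and all other regions with one (black), with 95% Wilson intervals. The red points rise from 32.6% to 84.5% and fall below the black points in each band, and the last red point rests on 8 regions.

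The 8 regions with 31 tags or more in D6 siNT split into groups of 4. The 4 with a D6 siH3.3 peak were among the strongest regions above and had 29 to 46 tags in D6T-. The other 4 had no D6 siH3.3 peak and were weak in D6T-. They had 9 tags in D6T- and 52 in D6 siNT at chr2:55063151-55063385, 10 and 49 at chr4:123426613-123426872 in an intron of Akirin1, a nuclear protein, 14 and 47 at chr19:21180180-21180509, and 9 and 44 at chr1:7095757-7095956 in an intron of Pcmtd1. Of the 6697 union regions with 31 tags or more in D6 siNT, 99.9% had a D6 siH3.3 peak, and these 4 were all that had none. They were picked out after their values were seen, and a cause was not tested.

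Where a region was called in both siRNA libraries, its level was close to equal in the median. The median log2 ratio of D6 siH3.3 over D6 siNT summit CPM was 0.09 (95% interval of the median 0.04 to 0.10) over the 1331 regions, and 0.08 over all 32330 union regions called in both. It was at least 1.5-fold higher in D6 siH3.3 in 122 regions (9.17%), against 9.59% of all regions called in both, and at least 1.5-fold lower in 75 (5.63%), against 5.17%. The pooled shares were near those of all regions, but within bands of D6 siNT signal they were not. At 21 to 30 tags 27.6% of the regions called in both were at least 1.5-fold lower in D6 siH3.3, against 9.35% of the other regions and 32% of those open in D3 and D6T- only, and at 16 to 20 tags the shares were 13.6%, 6.28% and 8.22%. At 13 to 15 tags 4.67% were at least 1.5-fold higher, against 14.0% and 8.52%. The ratio followed the D6 siNT signal that chose the regions, from a median of 0.49 at 9 to 10 tags to -0.36 at 21 to 30 tags, and over the other regions with a D6 siNT peak it went from 0.51 to -0.01. The 1509 regions without a D6 siH3.3 peak entered no ratio, and the lowest called D6 siH3.3 summit had 0.429 CPM (8 tags). At 9 to 10 D6 siNT tags a 1.5-fold lower level would lie below that floor, so the ratios of the weak bands were held up by it.

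SOX motifs were more frequent in these regions than in D6T- regions at large. The motif (CCATTGT on either strand) was found in the 200 bp around the D6T- summit of 294 regions (10.4%, 9.28 to 11.5), against 4.49% of all 126731 D6T- regions and 5.64% of the D6-only regions without a D6 siNT peak. In windows of the same length 1 kb to either side of the summit, the shares were 3.57%, 2.89% and 2.92%. Matches were concentrated at the summit, with 3.13 and 3.06 per 100 regions in the 50 bp to its left and right, against 0.845 and 0.775 in the outermost bins 450 to 500 bp away. The choice of this motif as the most raised of 24 was made on the same regions, so its share is a description.

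The SOX share was then set against regions alike in other ways. Of regions with a D6 siNT peak, 8.58% (7.41 to 9.91) of those open in D3 and D6T- only, 11% (7.90 to 15.1) of those open from D6T- onwards and 5.03% of all D6T- regions held the motif. In windows with 40 to 45% GC, 10.4% of the regions held it against 6.30% of the D6-only regions without a D6 siNT peak and 6.29% of all D6T- regions, and at 45 to 50% GC the shares were 10.2%, 4.83% and 4.71%. The shares lay close to each other below 35% GC (8.72%, 8.25% and 7.35%), and above 55% GC the regions had the lowest (1.67% of 60 regions, 2.51% and 1.81%). The SOX share rose with the D6T- signal, from 3.43% of 175 regions with 8 to 10 tags to 10.2% at 16 to 20 tags and 17.5% of 200 regions at 31 tags or more. It also rose in the D6-only regions without a D6 siNT peak, from 5.21% to 6.62% and 12.2% of 180 regions in the same bands, whereas over all D6T- regions it stayed between 4.13% and 4.81%. In the band of 8 to 10 tags the share was below that of D6-only regions without a D6 siNT peak, and in the 4 higher bands it was above theirs. A D6 siH3.3 peak was present at 54.1% (48.4 to 59.7) of the regions with the SOX motif and at 46.0% (44.1 to 48.0) of those without. These groups also differed in signal, with a median of the lower of D6T- and D6 siNT CPM of 0.597 and 0.561. Whether the motif went with the D6 siH3.3 peak at equal signal was not tested.

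**Figure D4:**
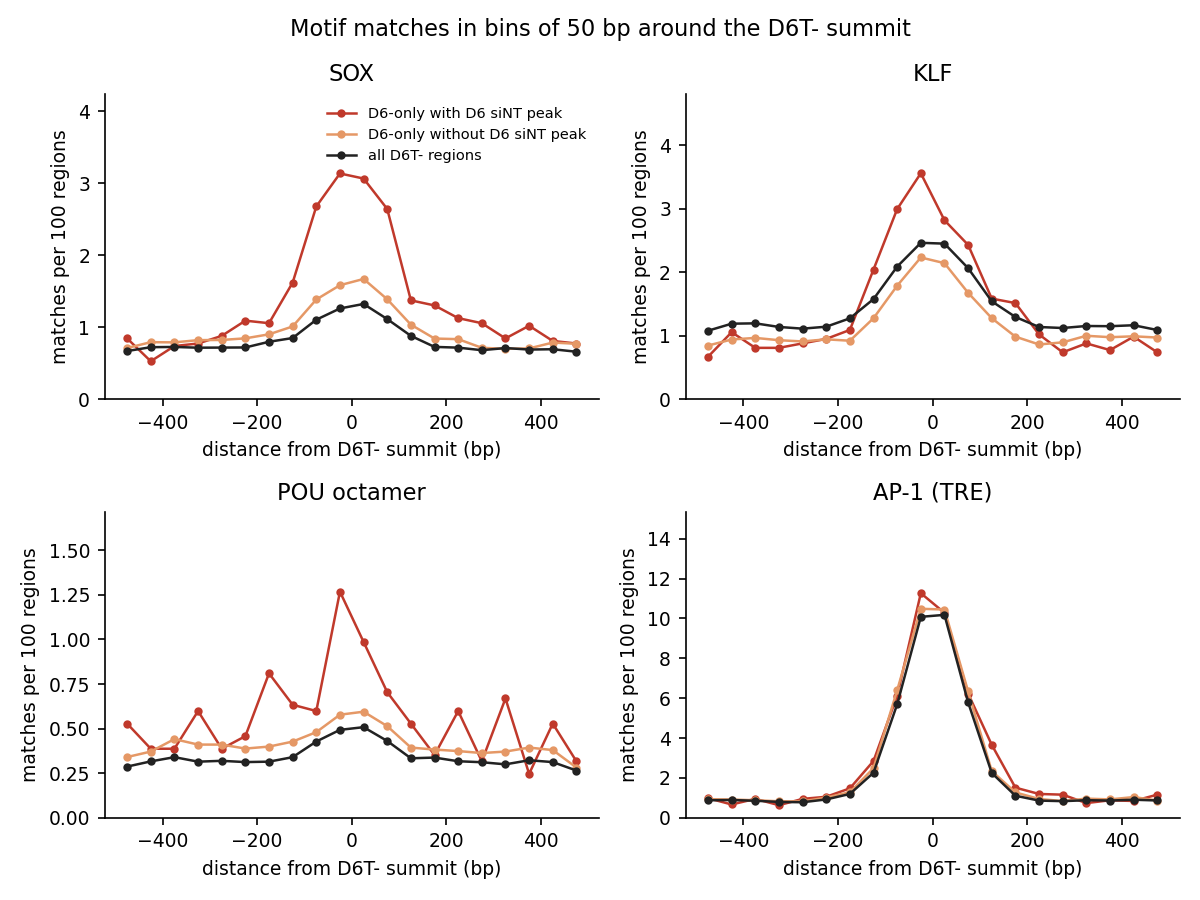
Motif matches on either strand per 100 regions (y axis) in bins of 50 bp by distance from the D6T- summit (x axis, bp) for SOX, KLF, POU octamer and AP-1, in the D6-only regions with a D6 siNT peak (red), the D6-only regions without one (orange) and all D6T- regions (black). All 4 motifs peak at the summit in red, SOX at 3.13 per 100 regions against 1.26 in all D6T- regions, and AP-1 at 11.3 against 10.1.

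The KLF and octamer motifs were above their share of all D6T- regions by less than SOX was, and that of Myc was below it. The KLF motif (CACACCC) was held by 298 regions (10.5%, 9.42 to 11.7), against 8.08% of all D6T- regions and 3.42% of the flanking windows, but other regions with a D6 siNT peak held it about as often or more often. Of regions with such a peak, 9.98% of all D6T- regions, within the interval above, 13.4% (12.0 to 15.0) of the regions open in D3 and D6T- only and 12.7% (9.37 to 17.0) of those open from D6T- onwards held it. The POU octamer (ATGCAAAT), bound by Oct4 and its relatives, was held by 94 regions (3.31%, 2.71 to 4.03), against 1.74% of all D6T- regions, 2.06% of the D6-only regions without a D6 siNT peak and 6.06% of the regions open from D6T- onwards. The octamer is rich in A and T, and the flanking windows of the regions also held it more often (1.81%) than those of all D6T- regions (1.24%). By GC content of the window, the octamer share was 8.26% of 218 regions below 35% GC, against 4.77% of all D6T- regions. At 45 to 50% GC it was 2.99% against 1.74%. The shares were closer at 35 to 40% GC (3.78% and 3.36%), 40 to 45% (2.76% and 2.65%) and 50 to 55% (1.28% and 1.18%). Above 55% GC none of 60 regions held it, against 0.575%. With the same number of strongest regions kept per library, the octamer share was 0.722% of 831 regions, below the 1.74% of all D6T- regions in the main setting. With the stronger 50% of the peaks it was 2.71%, and with a D6T- summit of at least 1.06 CPM 2.51%, both above that share. Octamer and SOX motif stood together in 7 regions. At least 1 of the octamer, SOX and KLF motifs was held by 644 regions (22.7%, 21.2 to 24.3), against 13.7% of all D6T- regions and 14.2% of the D6-only regions without a D6 siNT peak.

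The most frequent motif was that of AP-1. TGACTCA was held by 842 regions (29.6%, 28.0 to 31.4), against 28.2% of all D6T- regions, 30.9% of the D6-only regions without a D6 siNT peak, 31% of the regions open in D3 and D6T- only and 8.92% of those open from D6T- onwards. Of regions with a D6 siNT peak, 36.0% (33.9 to 38.1) of those open in D3 and D6T- only held it, above the interval of the regions. The share was 10.3% (7.32 to 14.3) of those open from D6T- onwards and 27.5% of all D6T- regions with such a peak. The flanking windows of the regions held it in 4.05%. The AP-1 share of the regions rose with the D6T- signal, from 11.4% at 8 to 10 tags to 47.5% at 31 tags or more. In each of the 5 signal bands it was below that of the D6-only regions without a D6 siNT peak (22.3% and 60.6% at the ends). Against all D6T- regions it was lower at 8 to 10 tags (19.5%), 11 to 15 tags (20.8% and 24.5%) and 16 to 20 tags (26.7% and 29.0%). It was higher at 21 to 30 tags (41.4% and 32.4%) and at 31 tags or more (31.8% of all D6T- regions). A D6 siH3.3 peak was present at 48.6% (45.2 to 51.9) of the regions with AP-1 and at 46.1% (44.0 to 48.3) of those without. The TEAD motif (ACATTCC), of the partners of Yap, was held by 3.94% against 5.28% of all D6T- regions, and the RUNX motif (AACCACA) by 6.83% against 6.84%.

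Motifs of promoters and of CTCF, the factor at the borders of chromatin loops, were less frequent than in all D6T- regions. The SP1 motif (GGGGCGG) was held by 1.51% against 6.21%, the ETS motif (CCGGAAG) by 0.739% against 2.38%, the TFAP2 motif (GCCNNNGGC) by 2.85% against 7.49% and the CTCF core (GGNGGCAG) by 3.84% against 7.76%. The D6-only regions without a D6 siNT peak were also below all D6T- regions in these, at 1.28%, 0.726%, 3.95% and 5.24%. The E-box of MyoD and its relatives (CAGCTG) was held by 12.4% against 15.6%, that of Snail and Zeb factors (CAGGTG) by 9.86% against 10.4%, and that of Myc (CACGTG) by 2.11% against 3.59%. The motif of Gata factors (AGATAAG) was held by 1.80% against 1.97%. The NFY motif (CCAATCA) was held by 2.39% against 3.17%. TGTTTAC (FOX) was held by 3.2% against 2.53%, ATCAAAG (TCF/LEF) by 3.66% against 2.63% and TAATTA (homeobox) by 3.98% against 2.65%, and the flanking windows of the regions held these 3 in 3.22%, 3.66% and 7.83%. AACCNGTT (GRHL) was held by 1.23% against 1.19%, TTCCNGGAA (STAT) by 0.739% against 0.852%, and the remaining TGACGTCA (AP-1/CREB), TTGCGCAA (C/EBP), TCAAGGTCA (ESRRB) and GTCTAGAC (SMAD) by 11, 4, 6 and 3 regions. No match to any of octamer, SOX, KLF, AP-1, TEAD and RUNX was found in 1343 regions (47.3%, against 54.5% of all D6T- regions). A match says only that these letters are in the window.

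The windows were poor in G and C. Their median GC content was 42.5% (quartiles 38.5 and 46.0), against 45% in the D6-only regions without a D6 siNT peak, 48.5% in all D6T- regions and 63.0% in regions open in all 7 libraries, and 24.2% held no CpG against 14.5% of all D6T- regions. The flanking windows had 41.5% GC against 44.5%.

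The regions lay away from promoters. Their midpoint fell in a promoter for 162 regions (5.70%, 4.91 to 6.62), against 14.3% of all D6T- regions, 8.34% of the D6-only regions without a D6 siNT peak, 9.76% of those open in D3 and D6T- only and 46.9% of those open in all 7 libraries. Genebodies held 1274 (44.9%), most of them in introns (1211 regions), and 1404 (49.4%, 47.6 to 51.3) were intergenic against 40.1% of all D6T- regions. The median distance to the nearest TSS was 29835 bp, against 20853 bp without a D6 siNT peak and 14047 bp over all D6T- regions. More than 100 kb from any TSS lay 612 regions (21.5%, 20.1 to 23.1), against 11.5% of all D6T- regions. A D6 siH3.3 peak was present at 40.1% (32.9 to 47.8) of the regions in promoters, 45% (42.3 to 47.7) of those in genebodies and 49.4% (46.7 to 52.0) of the intergenic ones, with overlapping intervals between neighbours in this order. The SOX share was alike in the 3 positions, at 9.88%, 9.81% and 10.9%.

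**Figure D5:**
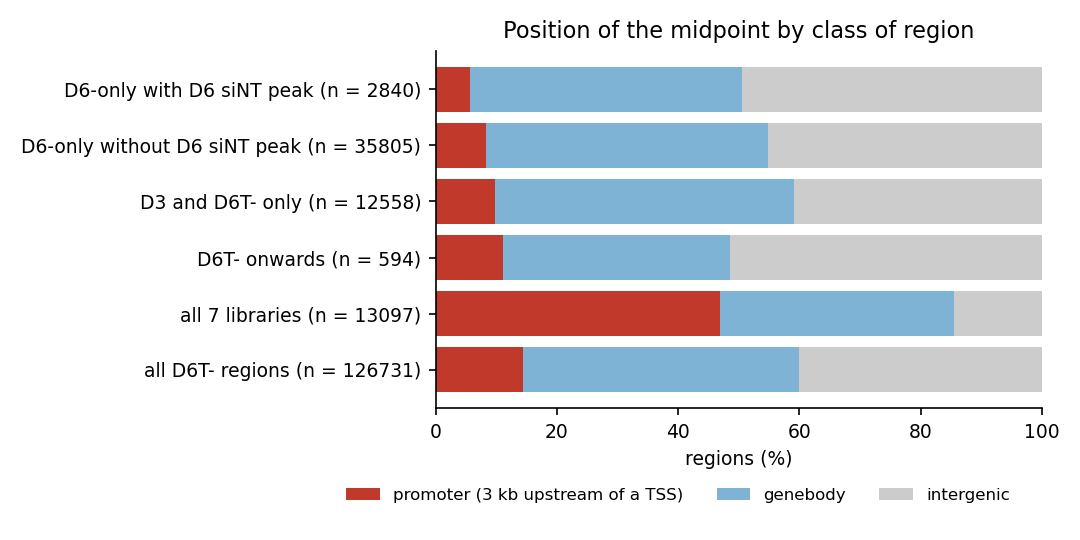
Share of regions (x axis, %) whose midpoint lay in a promoter (red), a genebody (blue) or between genes (grey) for 6 classes of region (y axis, with the number of regions). Promoters held 5.70% of the D6-only regions with a D6 siNT peak, the lowest share of the 6 classes, and 46.9% of the regions open in all 7 libraries.

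In promoters of protein-coding genes, the strongest region lay 2161 bp upstream of Ptpla, an enzyme of very long chain fatty acid synthesis, at chr2:13979702-13980145, with 49 tags in D6T- (2.29 CPM), 25 in D6 siNT (1.15 CPM) and 20 in D6 siH3.3 (1.07 CPM). The region 1098 bp upstream of an internal TSS of Pkib, an inhibitor of protein kinase A, at chr10:57364312-57364842, had 1.5, 1.06 and 0.589 CPM. It held the AP-1 motif. This region and those of Rap1gap2, Lyn, Ptpro, Plcb1 and Zbtb32 below lay inside the annotated span of their gene. The region of Rap1gap2, an activator of the GTPase activity of Rap1, at chr11:74256840-74257745 (SOX region C above), had 1.45, 1.01 and 1.02 CPM. Its 3 levels lay within each other's Poisson intervals.

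The region 2993 bp upstream of an internal TSS of Lyn, a kinase of the Src family, at chr4:3680417-3680806, had 1.78 CPM in D6T-. It had 0.964 CPM in D6 siNT and no D6 siH3.3 peak. The region 53 bp upstream of Tmprss11f, a membrane serine protease of the epithelial family, at chr5:87061307-87061697, had 1.54 and 0.872 CPM, no D6 siH3.3 peak, and AP-1, KLF and NFY motifs. The region of Ptpro, a receptor tyrosine phosphatase, at chr6:137356327-137356760, was the single one of the 10 with its highest level in D6 siH3.3 (0.982, 0.964 and 1.23 CPM). The region 2805 bp upstream of an internal TSS of Plcb1, a phospholipase C, at chr2:135084918-135085307, had 1.78, 0.826 and 0.643 CPM. It held the SOX motif. The region 1449 bp upstream of an internal TSS of Zbtb32, a zinc finger repressor, at chr7:31379144-31379677, had 1.08, 0.826 and 0.643 CPM. It held AP-1, octamer and KLF motifs together. The other 2 promoters belong to Rpl37-ps1 and Rpl21-ps13, which the annotation lists as protein-coding but names as ribosomal pseudogenes.

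Along genes, from 3 kb upstream of the TSS to the end of the gene, 1105 of 21418 protein-coding genes (5.16%) held at least 1 of the regions, 211 held at least 2 and 64 at least 3. Gene length went with this share, which was 0.627% of genes under 10 kb, 7.46% of those of 30 to 100 kb and 47.7% of those over 300 kb. The most regions lay in Fam190a, with 6 over 1203 kb. Park2, a ubiquitin ligase, Pcdh15, a protocadherin, Ctnna3, an alpha-catenin, and Ptprd, a receptor tyrosine phosphatase, held 5 each, over 995 to 2271 kb. Pde5a, which degrades cyclic GMP, stood out by density, with 4 regions over 130 kb (3.00 per 100 kb) among 8 D6T- regions in all. Rap1gap2 held 4 over 207 kb, and Fndc3b, Vav3, a guanine nucleotide exchange factor, and Syne1, a protein of the nuclear envelope, held 4 each over 295 to 530 kb.

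Gene groups of the reprogramming cells were read with the same rule, beside the 5.16% of all protein-coding genes. Of 28 genes of naive and general pluripotency, 1 held a region: Tet2, an enzyme that oxidises methylated cytosine, had it in an intron 2143 bp from the TSS, at chr3:133205022-133205400, with 34 tags in D6T- (1.59 CPM), 13 in D6 siNT (0.597 CPM) and no D6 siH3.3 peak. Of 30 genes of stratified epithelia, 2 did: Trp63, the master factor of these epithelia, had 27, 18 and 10 tags in D6T-, D6 siNT and D6 siH3.3 at chr16:25780199-25780594, and Ehf, an epithelial ETS factor, had 17, 10 and 10. Of 20 mesenchymal transcription factors, Prrx1 held 1, with 19 and 14 tags and no D6 siH3.3 peak. Of 29 genes of fibroblast matrix and surface, Col12a1, a collagen, held 2, the stronger with 26, 21 and 22 tags, and Fbn1, a microfibril protein, held 1 with 14 and 13 tags and no D6 siH3.3 peak. These counts of 1 or 2 genes per group lay near the share of all genes.

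The signalling lists had longer genes. Of 30 genes of the TGF-beta and BMP pathway, 4 held a region (13.3%): the receptors Acvr1, with 3 regions, and Acvr2a, the ligand Bmp7 and the signal transducer Smad2. The strongest of Acvr1 had 17, 13 and 11 tags in D6T-, D6 siNT and D6 siH3.3, with AP-1 and SOX motifs, and those of Acvr2a, Bmp7 and Smad2 had 18, 14 and 22 tags in D6T-, each with the AP-1 motif and no D6 siH3.3 peak. Of 30 Wnt pathway genes, 4 held 1 (13.3%): the co-receptors Lrp5 and Lrp6, the effector Ctnnb1 and the repressor Tcf7l1. Of these only Ctnnb1, which encodes beta-catenin, had a D6 siH3.3 peak (19, 11 and 18 tags). Of 29 genes of the MAPK cascade, 3 held a region, the growth factor Egf (31, 13 and 13 tags), the receptor Met and the receptor Fgfr2. Fgfr2 counts with 3 regions because the annotation gives it a span of 3009 kb that covers other genes, and it is also the single hit of the 15 trophoblast genes. The median span was 62.9 kb for the TGF-beta and BMP list, 34.7 kb for Wnt and 33.5 kb for MAPK, against 15.5 kb for all protein-coding genes.

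Of 15 TEAD and YAP genes, Tead1 and Amotl1 held 1 region each (13.3%), and of 19 Runx, ETS and Gata factors, Elf1, Etv1 and Runx2 did (15.8%). These lists had long genes, with median spans of 47.4 and 58.4 kb against 15.5 kb for all protein-coding genes. Ncam1 was the single hit of 17 neural genes, and Pecam1 and Tek those of 15 endothelial genes. None of the 17 AP-1 subunit genes, 20 endoderm and primitive streak genes, 11 H3.3 genes and chaperones and 13 hematopoietic genes held a region, and 17, 18, 11 and 7 of them had a D6T- region of some kind. At the 5.16% of all protein-coding genes, lists this small can hold none, so these counts do not set them apart. The AP-1 and endoderm lists also had short genes, with median spans of 10.5 and 5.74 kb. Of the 10 fibroblast and 10 pluripotency genes of the label check, Fbn1 and Prrx1 held 1 each and no pluripotency gene did.

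The regions were spread over all chromosomes tested, from 1.66% of the D6T- regions of chromosome 17 to 3.39% of those of chromosome 3, which also had the most per length (1.68 per Mb). They were a median of 221719 bp from the next one, and 195 (6.87%) had another within 10 kb. The densest stretches of 500 kb held 6 regions each. On chromosome 2, chr2:137199453-137634465 held 6 of 25 D6T- regions and no protein-coding gene, and chr2:147905267-148266003 held 6 of 44, around Cd93, Sstr4 and Thbd and with the second strongest region above. The others lay on chromosome 3 around Fam198b and Tmem144, around Bcar3, Fnbp1l and Pde5a, and around Dkk2, an inhibitor of Wnt signalling, and on chromosome 5 around Kl, Pds5b and Stard13.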

How the data were processed

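ATAC-Seq peak files of 9 mouse libraries (1 per condition) were analysed. The authors aligned 51 bp reads to mm9. Per the file headers, MACS2 2.1.0.20151222 then called peaks from each library alone (no control, no local background, q-value cutoff 0.05, tags extended to 200 bp), and the submitters' processing notes also name STAR and Picard. The deposited signal of a summit is its pileup, a count of the extended tags that cover it, which is unscaled for depth. The deposited fold enrichment is a ratio to a uniform genome background. Significance was deposited as −log10 p-value and −log10 q-value.

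All summits of 1 peak and all peaks that overlapped were merged, the highest pileup of a region kept, and CPM computed from the tags in the headers. The D6 siNT and D6 siH3.3 values of a region are those of the strongest peak that overlapped it, whose summit can lie outside it. D6T- and D6 siNT peaks chose the regions. Members and gene and motif lists were chosen with earlier results of these data known. Genes came from GENCODE vM1 (NCBIM37). Shares carry 95% Wilson intervals, single summits exact Poisson intervals, and both hold counting error only, and tags are not independent molecules. With 1 library per condition no test was run. Regions named were the 10 with the highest lower of D6T- and D6 siNT CPM, the 10 genes with the most regions, the 10 strongest in protein-coding promoters, up to 4 genes per list and those at the edge of the rule. Python 3.11.15, numpy 2.4.6, pandas 2.3.3, scipy 1.17.1, statsmodels 0.14.6, pysam 0.24.0 and matplotlib 3.10.9 were used, and the functions were tested on simulated data. Alternatives covered peak strength, depth, overlap, D9T-, promoter, motif window and scaling, and those for the SOX motif and the octamer, and the flanking windows, were added after seeing the data. Experiments other than ATAC-Seq were not analysed here. Some items are not reported here.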

Additional observations from a re-analysis of the deposited data

How the results depend on the processing

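No paired analysis was possible because each condition had 1 library. Keeping 50% of each library's peaks by q-value gave 1219 regions, keeping 35811 regions per library gave 831, and requiring a D6T- summit of at least 1.06 CPM gave 796, against 2840. Of the 1219 and 831, 331 and 213 were among the 2840, since a stricter threshold also lets regions with a weak peak elsewhere count as D6-only. In these 3 settings, in this order, the AP-1 share was 39.0%, 49.8% and 44.0%, and the SOX share, tried after seeing the data, 12.0%, 12.0% and 13.2%. The octamer share, tried likewise, was 2.71%, 0.722% and 2.51%. In the equal-number setting it fell below the 1.74% of all D6T- regions, a share of the main setting that was not recomputed. The share with a D6 siH3.3 peak was 61.6% in the equal-number setting, 66.2% in the last and 55.9% without D9T- in the rule (4057 regions). Each was below the 78.6% of all regions with a D6 siNT peak, but that share is of the main setting and was not recomputed. The promoter share was 8.18% in the equal-number setting, 4.77% in the last, 2.11% with promoters of 1 kb upstream to 100 bp downstream and 4.23% over protein-coding genes only. In 100 bp windows AP-1 was at 18.9% (17.8% over all D6T- regions) and SOX at 5.88% (2.37%), in whole regions at 37.9% (34.1%) and 15.4% (8.20%), in the flanks at 4.05% and 3.57%, and AP-1 with the letters TGANTCA at 37.2% (33.8%). The median log2 ratio of D6 siH3.3 over D6 siNT was 0.11 in the equal-number setting, 0.0069 centred on all regions called in both and 0.027 from fold enrichment. An overlap of 50% of the shorter region (2782 regions) or peaks within 200 bp (2867) left all of these results within the interval of the main value. Depth limits the absence of a peak most in D9T-, and 1 library per condition leaves the spread between cultures unknown.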
